A study of Homo sapiens with 12 samples.

Results

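Interferon-stimulated genes are the genes that cells switch on after interferon binds its receptor, and they include sensors of viral RNA, inhibitors of virus entry and replication, and the regulators that raise or end the response. They were followed here in MDA-MB-231 and HCC70, established cell lines from triple-negative breast cancers, treated with the BET bromodomain inhibitor JQ1. A list of 48 genes was taken by symbol, and 36 of them carried a symbol in the array annotation, out of 14884 genes tested. The other 12 (IFI16, OAS1, OAS2, OAS3, STAT2, MX1, CMPK2, PARP9, PARP14, IFI6, IFI27 and LGALS3BP) had no symbol there and were not analysed here. Each of the 36 was read from 1 transcript cluster, the array's unit for a gene.

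Each line was kept for 72 hours with 500 nM JQ1 or with its vehicle, 0.1% DMSO, called Control. JQ1 fills the pockets with which the BET proteins hold acetylated histones, so that they leave chromatin. The RNA of each sample went on 1 Human Gene 2.0 ST array, 12 in all and 3 in each of the 4 groups (MDA-MB-231 Control, MDA-MB-231 JQ1, HCC70 Control and HCC70 JQ1). All values are log2 signals, differences are on the log2 scale with the standard error (SE) of the limma fit, and the number of arrays limits their precision. Nothing in the labels shows whether replicate arrays stem from independent cultures, so each p-value measures the spread among these arrays alone, which may be technical. No sample was treated with interferon, so Control levels are those of unstimulated cultures as labelled. In a bulk sample, fewer cells with a transcript and less RNA per cell cannot be told apart.

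Type I interferons act through the kinases JAK1 and TYK2, which lead to the assembly of the transcription factor complex ISGF3. With IRF9 as a subunit, this complex binds the interferon-stimulated response element (ISRE) in the promoters of its target genes. Many tumour lines hold some of these genes at a raised level without added interferon, and BET proteins take part in their transcription.

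The arrays of a group correlated at r = 0.989 to 0.995 across genes. Array medians over the genes tested lay between 6.22 and 6.26 in Control and, slightly lower, between 6.16 and 6.19 with JQ1. Most line markers differed between the Control groups. The epithelial adhesion protein EPCAM had a mean of 10.31 in HCC70 Control against 7.41 in MDA-MB-231 Control, and the intermediate filament VIM 7.13 against 10.42. The basal keratin KRT5 was higher in HCC70 (8.53 against 4.67), and the mesenchymal factor ZEB1 lower (4.47 against 7.74), in each case with the lower value near background. The luminal keratins KRT8 and KRT18 were well above background in both lines, and KRT18 was slightly lower in HCC70 (-0.28 ± 0.091 SE). Line markers also changed with JQ1: EPCAM fell by 1.74 ± 0.12 in MDA-MB-231, VIM fell by 1.72 ± 0.11 in HCC70, and KRT8 and KRT18 rose in both lines (0.37 and 0.59 in MDA-MB-231, 0.45 and 0.85 in HCC70). Of the 6 stromal and endothelial markers 4 were measured, 3 of these were near background in every group, and 0 were called under JQ1 in either line. Of the 9 blood cell markers 3 were measured (CD14, CD68 and CSF1R), and their mean over an array lay between 7.52 and 8.20 in all groups. This mean hides opposite differences between the lines. CD14 had a mean of 8.52 in HCC70 Control against 5.72 in MDA-MB-231 Control, CD68 9.31 against 10.81, and CSF1R 6.10 against 6.37. Under JQ1, CSF1R fell in MDA-MB-231, while in HCC70 CD14 fell and CD68 rose. The part of these line and blood markers in the results below was not tested. Near background means a group mean below the lower quartile of the genes tested in that group, which lay between 4.78 and 4.82. By this rule 4 members were near background in MDA-MB-231 Control (RSAD2, TRIM22, IFI44L and EPSTI1), 7 in MDA-MB-231 JQ1, 1 in HCC70 Control (MX2) and 6 in HCC70 JQ1. A fall that ends there is read as a lower bound.

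In each line JQ1 lowered most of the 36 measured interferon-stimulated genes, and 16 of them were lower in both lines. In MDA-MB-231, 21 of 36 members fell and 2 rose, where 17.0% of all genes fell and 10.8% rose (limma, Benjamini-Hochberg adjusted p under 0.05 over all genes tested). In HCC70, 27 of 36 members fell and 2 rose, where 12.5% of all genes fell and 9.18% rose. The median change of the members was -0.39 in MDA-MB-231 and -0.85 in HCC70, beside medians of 0.017 and 0.0057 over all genes. A negative change, called or not, was measured for 30 members in MDA-MB-231 and 32 in HCC70 (83.3% and 88.9%, beside 47.3% and 48.8% of all genes). With a change of at least 1 in size also required, 7 members fell in MDA-MB-231 and 15 in HCC70, against 3.55% and 1.96% of all genes, and 0 members rose in either line, against 0.800% and 0.598%. Lower calls made up 61.2% and 57.7% of all called genes in MDA-MB-231 and HCC70, and 48.9% and 43.9% after each array was centred on its median, or 48.6% and 50.4% after quantile normalization.

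**Figure D1:**
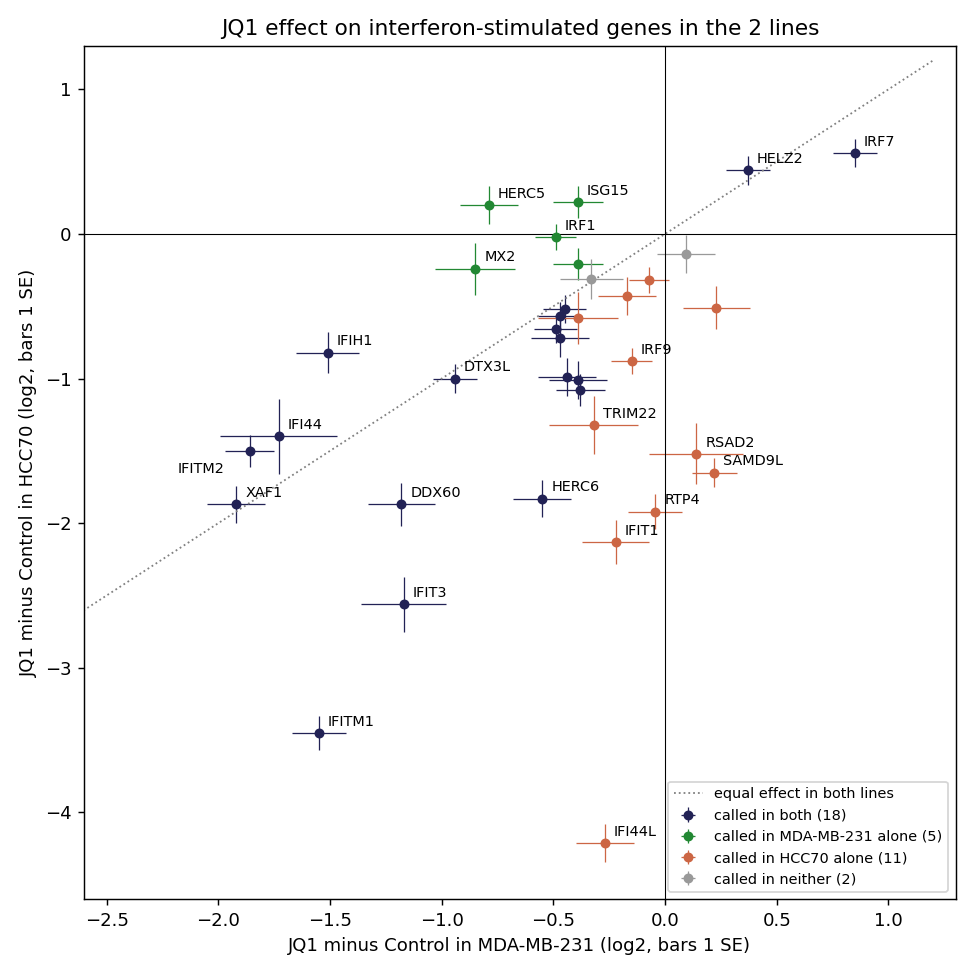
JQ1 minus Control (log2) in MDA-MB-231 on the x axis and in HCC70 on the y axis, 1 point per measured member with bars of 1 SE, coloured by the lines in which it was called, and a dotted line where changes are equal. Most points lie in the lower left, IFI44L lies farthest down at -4.21 in HCC70 and -0.27 in MDA-MB-231, and IRF7 and HELZ2 lie in the upper right.

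The 16 members lower in both lines were 44.4% of those measured, where 6.89% of all genes were lower in both. They were the RNA sensors and effectors IFIH1, DDX60, EIF2AK2 and OASL, the ISG15 pathway genes UBE2L6 and HERC6, the membrane proteins IFITM1, IFITM2, IFITM3 and BST2, the RNA-binding proteins IFIT2, IFIT3 and IFIT5, and DTX3L, IFI44 and XAF1. IRF7 and HELZ2 were higher in both lines, 5.56% of the members beside 4.09% of all genes. A further 5 members were called lower in MDA-MB-231 alone (IRF1, SP110, ISG15, HERC5 and MX2) and 11 in HCC70 alone (IRF9, USP18, IFIT1, RSAD2, TRIM22, SAMD9, SAMD9L, IFI44L, PLSCR1, RTP4 and EPSTI1). These were 13.9% and 30.6% of the members, where 9.53% and 5.10% of all genes were lower in that line and not called in the other. ISG20 and IFI35 were called in neither. A call in 1 line alone is no test of a difference between lines, which is given further on.

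**Figure D2:**
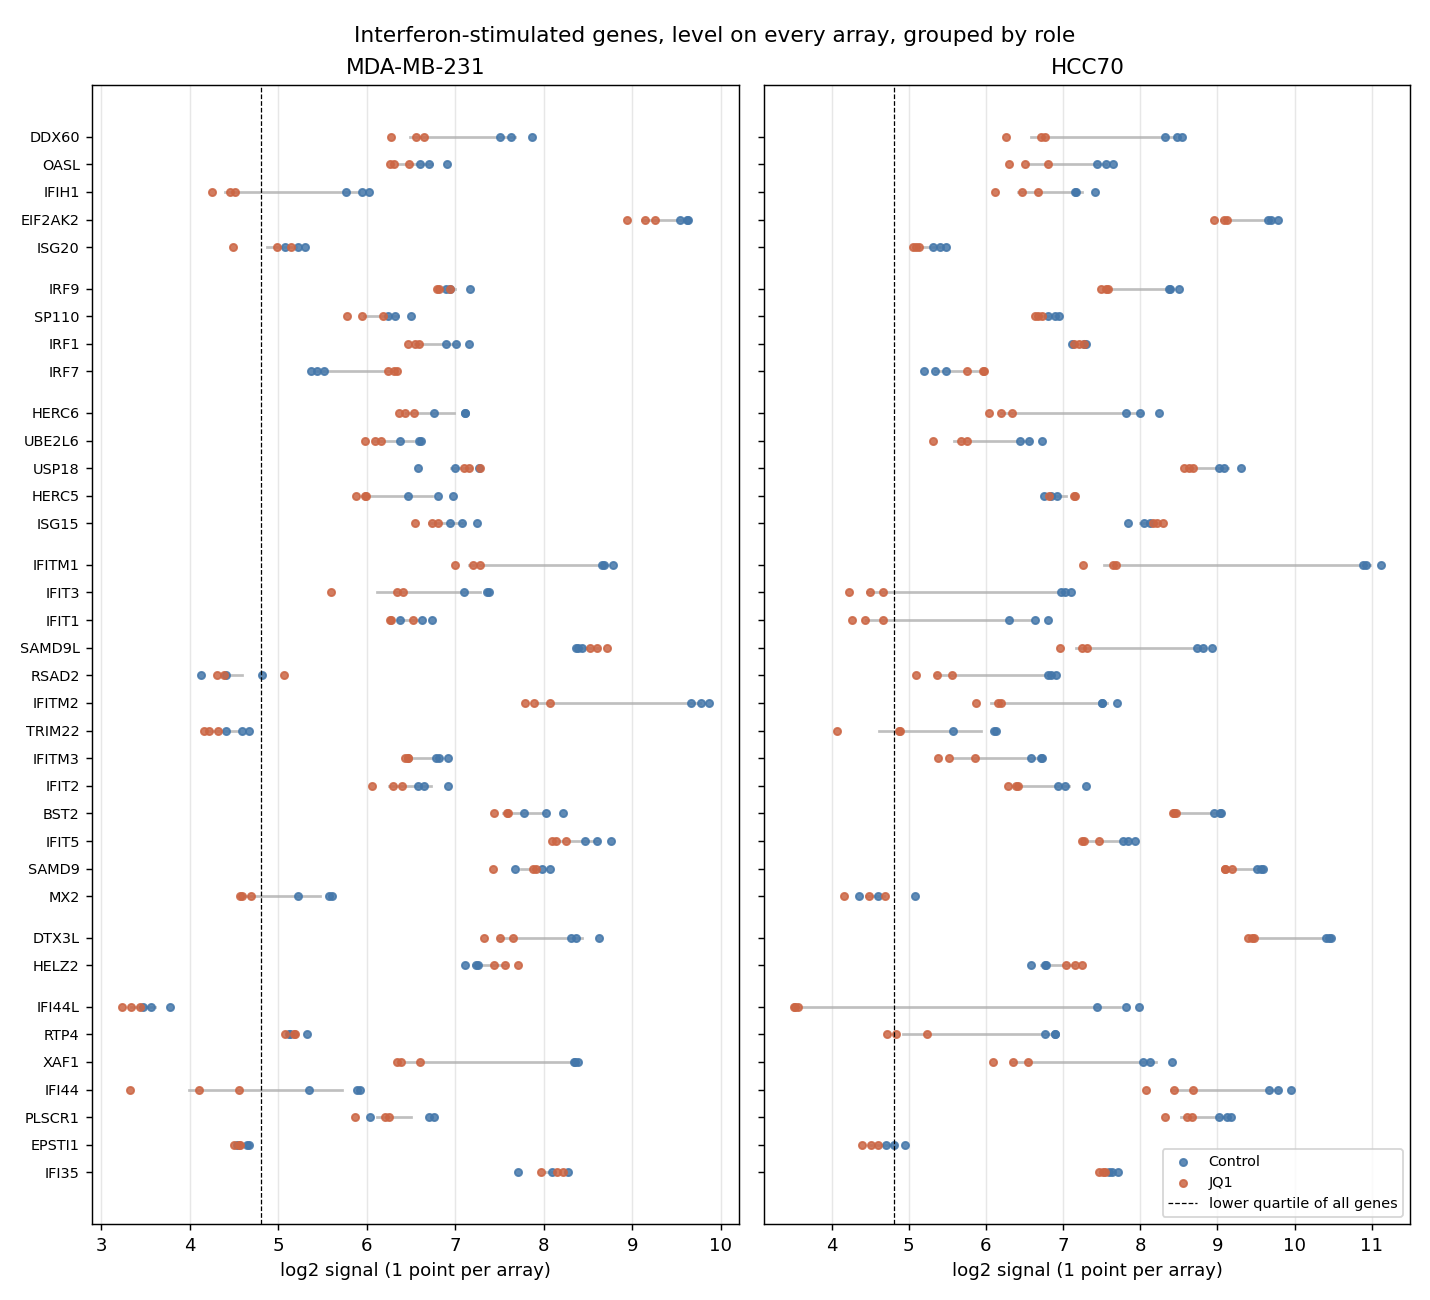
Log2 signal (x axis) of each array for the 36 measured members (y axis, grouped by role), with Control in blue, JQ1 in orange, grey lines between the means, and a dashed line at the mean of the lower quartiles of a line's Control and JQ1 arrays. IFI44L in HCC70 lies at 7.44 to 7.98 in Control and at 3.51 to 3.57 with JQ1, within the 3.23 to 3.78 of the MDA-MB-231 arrays.

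Among the sensors and the RNA-degradation arm, 5 of 9 listed genes were measured and the same number, 4, fell in each line. The helicase DDX60, a cofactor of RNA sensing, read 7.63, 7.87 and 7.5 in MDA-MB-231 Control and 6.56, 6.65 and 6.27 with JQ1. In HCC70 the DDX60 arrays read 8.48, 8.32 and 8.54 in Control and 6.77, 6.71 and 6.26 with JQ1. The groups did not overlap in either line. DDX60 fell by 1.18 ± 0.15 SE in MDA-MB-231 (limma adjusted p = 6.8e-05, n = 3 arrays per group) and by 1.87 ± 0.15 in HCC70 (adjusted p = 2.3e-06). IFIH1, the cytoplasmic sensor of long double-stranded RNA also called MDA5, read 5.94, 6.03 and 5.77 in MDA-MB-231 Control and 4.51, 4.45 and 4.25 with JQ1. In HCC70 it read 7.17, 7.41 and 7.16 in Control and 6.67, 6.47 and 6.12 with JQ1. IFIH1 was lower with JQ1 on every array of each line, by at least 1.51 ± 0.14 SE in MDA-MB-231, where it ended near background, and by 0.82 ± 0.14 in HCC70. EIF2AK2, the kinase PKR that halts translation on double-stranded RNA, fell by 0.49 ± 0.095 and 0.66 ± 0.095. OASL, an OAS-family protein without synthetase activity, fell by 1.01 ± 0.13 in HCC70 (limma adjusted p = 0.0001). Its change in MDA-MB-231, -0.39 ± 0.13, was called (adjusted p = 0.04) but not in 9 alternatives (up to 0.16 without MDA-MB-231 Control 2). ISG20, an RNA exonuclease, gave -0.33 ± 0.14 and -0.31 ± 0.14, which did not pass (adjusted p = 0.10 and 0.15). With the replicate number as a block within each line, the MDA-MB-231 value of ISG20 passed (adjusted p = 0.041), as it did without MDA-MB-231 JQ1 3 (0.026). The HCC70 value of ISG20 passed with each line fitted alone (0.028) and without MDA-MB-231 JQ1 2 (0.03).

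The transcription factors did not move together. Of 5 listed, 4 were measured, and 2 fell and 1 rose in MDA-MB-231 while 1 fell and 1 rose in HCC70. IRF9, the DNA-binding subunit of ISGF3, read 8.37, 8.39 and 8.50 in HCC70 Control and 7.58, 7.49 and 7.55 with JQ1. In MDA-MB-231 the IRF9 arrays read 6.94, 7.17 and 6.90 in Control and 6.94, 6.82 and 6.79 with JQ1. The HCC70 groups were apart and the MDA-MB-231 groups overlapped, with changes of -0.88 ± 0.091 SE (limma adjusted p = 2.1e-05) and -0.15 ± 0.091 (adjusted p = 0.25). IRF7, the factor that amplifies type I interferon production, rose on every array of both lines. It read 5.37, 5.44 and 5.52 in MDA-MB-231 Control and 6.34, 6.24 and 6.31 with JQ1, a change of 0.85 ± 0.097 SE (limma adjusted p = 2.7e-05). In HCC70 IRF7 read 5.2, 5.48 and 5.34 in Control and 5.98, 5.96 and 5.76 with JQ1, a change of 0.56 ± 0.097 (limma adjusted p = 0.001). IRF1, a factor induced by interferon gamma, read 6.90, 7.15 and 7.01 in MDA-MB-231 Control and 6.59, 6.47 and 6.54 with JQ1. That fall was 0.49 ± 0.091 SE (limma adjusted p = 0.0014), while in HCC70 the IRF1 groups overlapped and the change was -0.023 ± 0.091. SP110, a nuclear body protein, fell by 0.39 ± 0.11 in MDA-MB-231 (limma adjusted p = 0.017). The SP110 call ended with each line fitted alone (0.07), without MDA-MB-231 Control 2 (0.077) or without MDA-MB-231 JQ1 1 (0.072).

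ISG15 is a ubiquitin-like protein that UBE2L6 and HERC5 attach to other proteins and that USP18 removes. All 5 listed genes of this pathway were measured, and 4 fell in MDA-MB-231 and 3 in HCC70. HERC6, a ligase-family neighbour of HERC5, read 8.24, 7.82 and 7.99 in HCC70 Control and 6.34, 6.04 and 6.19 with JQ1, a fall of 1.83 ± 0.13 SE (limma adjusted p = 9.8e-07). In MDA-MB-231 HERC6 read 7.11, 7.11 and 6.76 in Control and 6.43, 6.53 and 6.36 with JQ1, a fall of 0.55 ± 0.13. The HERC6 groups were apart in both lines. HERC5 read 6.80, 6.97 and 6.46 in MDA-MB-231 Control and 5.88, 5.99 and 5.98 with JQ1, and 6.84, 6.92 and 6.75 in HCC70 Control and 7.15, 7.14 and 6.82 with JQ1. HERC5 thus fell in MDA-MB-231 by 0.79 ± 0.13 (limma adjusted p = 0.00048), and its HCC70 groups overlapped (0.20 ± 0.13, adjusted p = 0.34, but 0.042 without the 3 arrays numbered 3). ISG15 itself read 7.08, 6.94 and 7.25 in MDA-MB-231 Control and 6.81, 6.55 and 6.74 with JQ1. In HCC70 the ISG15 arrays read 7.84, 8.12 and 8.05 in Control and 8.17, 8.29 and 8.21 with JQ1. It was lower on all JQ1 arrays of MDA-MB-231 and higher on all JQ1 arrays of HCC70, with changes of -0.39 ± 0.11 SE (limma adjusted p = 0.017) and 0.22 ± 0.11 (adjusted p = 0.19, not passed). The ISG15 call in MDA-MB-231 ended under quantile normalization (0.093), without MDA-MB-231 Control 3 (0.061), without MDA-MB-231 JQ1 2 (0.074) and without the 3 arrays numbered 3 (0.098). UBE2L6 fell by 0.99 ± 0.13 in HCC70. In MDA-MB-231 the UBE2L6 change of -0.44 ± 0.13 was called, but not without MDA-MB-231 Control 1 (0.068), Control 3 (0.054), JQ1 3 (0.066) or the 3 arrays numbered 3 (0.14). USP18 read 6.58, 7.0 and 7.27 in MDA-MB-231 Control and 7.16, 7.10 and 7.28 with JQ1, and these groups overlapped. In HCC70 USP18 read 9.31, 9.02 and 9.09 in Control and 8.68, 8.63 and 8.57 with JQ1, a fall of 0.51 ± 0.15 (limma adjusted p = 0.025) that did not pass in 6 alternatives (up to 0.10 without HCC70 Control 1).

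The inhibitors of virus entry and replication were the longest list. Of 15 listed, 13 were measured, and 8 fell in MDA-MB-231 and 12 in HCC70, with 0 rising in either line. The IFITM proteins sit in membranes and block virus fusion. IFITM1 read 8.66, 8.78 and 8.68 in MDA-MB-231 Control and 7.0, 7.28 and 7.20 with JQ1. In HCC70 the IFITM1 arrays read 10.89, 11.12 and 10.92 in Control and 7.64, 7.69 and 7.26 with JQ1. Groups were far apart in both lines, and IFITM1 fell by 1.55 ± 0.12 SE in MDA-MB-231 (limma adjusted p = 1e-06) and fell by 3.45 ± 0.12, or 10.9-fold, in HCC70 (adjusted p = 2.2e-09). IFITM2 read 9.87, 9.78 and 9.67 in MDA-MB-231 Control and 7.89, 8.07 and 7.79 with JQ1, and 7.51, 7.70 and 7.51 in HCC70 Control and 6.19, 6.16 and 5.87 with JQ1. Its falls of 1.86 ± 0.11 SE (3.63-fold) and 1.5 ± 0.11 left no overlap in either line. IFITM3 fell by 1.08 ± 0.11 in HCC70. Its change of -0.38 ± 0.11 in MDA-MB-231 was called (limma adjusted p = 0.023), but not over all transcript clusters (0.055), under quantile normalization (0.056), without MDA-MB-231 Control 1 (0.079) or without MDA-MB-231 JQ1 2 (0.064). The IFITM genes resemble one another in sequence, so array signal may be shared between them. BST2, or tetherin, which holds budding viruses at the cell surface, fell by 0.47 ± 0.10 in MDA-MB-231 and 0.57 ± 0.10 in HCC70.

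The IFIT proteins bind viral RNA and lie next to each other on chromosome 10. IFIT3 read 7.38, 7.36 and 7.10 in MDA-MB-231 Control and 6.41, 6.34 and 5.59 with JQ1, and 7.10, 6.97 and 7.02 in HCC70 Control and 4.5, 4.22 and 4.67 with JQ1. The IFIT3 groups were apart in both lines, with a fall of 1.17 ± 0.19 SE in MDA-MB-231 (limma adjusted p = 0.00045) and a change of -2.56 ± 0.19, a lower bound in size, in HCC70 (adjusted p = 1.2e-06). IFIT1 read 6.64, 6.80 and 6.30 in HCC70 Control and 4.66, 4.43 and 4.26 with JQ1, and 6.74, 6.62 and 6.38 in MDA-MB-231 Control and 6.27, 6.52 and 6.26 with JQ1. It was lower on every JQ1 array of HCC70, with a change of -2.13 ± 0.15 SE that is again a lower bound in size (limma adjusted p = 8.3e-07), while the MDA-MB-231 groups overlapped (-0.22 ± 0.15, adjusted p = 0.31). IFIT5 fell by 0.45 ± 0.098 and 0.52 ± 0.098, and IFIT2 by 0.72 ± 0.13 in HCC70. The IFIT2 change of -0.47 ± 0.13 in MDA-MB-231 was called (limma adjusted p = 0.014), but not without MDA-MB-231 Control 3 (0.054), MDA-MB-231 JQ1 3 (0.062) or the 3 arrays numbered 3 (0.15).

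Other members of this group were called lower mostly in HCC70. SAMD9L, a restriction factor that limits translation of viral RNA, read 8.93, 8.73 and 8.81 in HCC70 Control and 7.31, 7.25 and 6.96 with JQ1. In MDA-MB-231 SAMD9L read 8.43, 8.36 and 8.39 in Control and 8.60, 8.71 and 8.52 with JQ1. All JQ1 arrays were thus below Control in HCC70 and above it in MDA-MB-231, with changes of -1.65 ± 0.10 SE (limma adjusted p = 3.5e-07) and 0.22 ± 0.10 (adjusted p = 0.13, but 0.011 under quantile normalization). RSAD2, or viperin, which makes a chain-terminating nucleotide, read 6.91, 6.84 and 6.81 in HCC70 Control and 5.37, 5.09 and 5.56 with JQ1, a fall of 1.52 ± 0.21. In MDA-MB-231 RSAD2 stayed near background in both groups (4.82, 4.13 and 4.41 in Control, 4.39, 5.06 and 4.31 with JQ1), so a fall could not be measured there. TRIM22, a ubiquitin ligase, fell by at least 1.32 ± 0.20 in HCC70, and was near background in both MDA-MB-231 groups (-0.32 ± 0.20, limma adjusted p = 0.28, or 0.027 with the replicate block within each line). SAMD9 changed by -0.43 ± 0.13 in HCC70 (limma adjusted p = 0.036), a call lost in 8 alternatives, among them each HCC70 array left out (up to 0.10). MX2, a dynamin-like restriction factor, fell by at least 0.85 ± 0.18 in MDA-MB-231 and was near background in both HCC70 groups.

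DTX3L, the ubiquitin ligase partner of PARP9, fell by nearly the same amount in both lines. It read 8.31, 8.63 and 8.36 in MDA-MB-231 Control and 7.5, 7.65 and 7.32 with JQ1, and 10.45, 10.47 and 10.40 in HCC70 Control and 9.45, 9.47 and 9.40 with JQ1. The groups did not overlap, and the falls were 0.94 ± 0.10 SE and 1.0 ± 0.10. HELZ2, a helicase that co-activates nuclear receptors, went up on all JQ1 arrays of each line. It read 7.11, 7.23 and 7.26 in MDA-MB-231 Control and 7.71, 7.44 and 7.56 with JQ1, and 6.78, 6.58 and 6.76 in HCC70 Control and 7.04, 7.25 and 7.15 with JQ1. The HELZ2 rises were 0.37 ± 0.099 SE (limma adjusted p = 0.013) and 0.44 ± 0.099 (adjusted p = 0.0063), the first of which did not pass without MDA-MB-231 Control 1 (0.055) or MDA-MB-231 JQ1 1 (0.058).

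Among the other induced genes 7 of 10 were measured, and 2 fell in MDA-MB-231 and 6 in HCC70. IFI44L, an antiviral protein encoded beside IFI44, read 7.98, 7.44 and 7.81 in HCC70 Control and 3.52, 3.57 and 3.51 with JQ1. It read 3.56, 3.78 and 3.47 in MDA-MB-231 Control and 3.23, 3.33 and 3.44 with JQ1. IFI44L stood clear of background in HCC70 Control and in no other group, and its change there was -4.21 ± 0.13 SE, a fall of at least 18.5-fold (limma adjusted p = 1.6e-09). IFI44 read 5.92, 5.89 and 5.35 in MDA-MB-231 Control and 4.55, 4.10 and 3.32 with JQ1, and 9.79, 9.95 and 9.67 in HCC70 Control and 8.68, 8.44 and 8.08 with JQ1. Its arrays did not overlap in either line, with falls of at least 1.73 ± 0.26 SE in MDA-MB-231 and of 1.40 ± 0.26 in HCC70. XAF1, a pro-apoptotic partner of the inhibitor XIAP, read 8.35, 8.39 and 8.34 in MDA-MB-231 Control and 6.39, 6.60 and 6.34 with JQ1. In HCC70 the XAF1 arrays read 8.41, 8.13 and 8.04 in Control and 6.35, 6.54 and 6.09 with JQ1. The falls of XAF1 were 1.92 ± 0.13 SE, or 3.77-fold (limma adjusted p = 2.2e-07), and 1.87 ± 0.13 (adjusted p = 7e-07). RTP4, a chaperone of G protein-coupled receptors, read 6.89, 6.90 and 6.77 in HCC70 Control and 4.84, 4.72 and 5.24 with JQ1, and 5.12, 5.13 and 5.32 in MDA-MB-231 Control and 5.19, 5.18 and 5.07 with JQ1. RTP4 was thus lower with JQ1 in HCC70, by 1.92 ± 0.12 SE or 3.78-fold (limma adjusted p = 4.1e-07), and overlapped in MDA-MB-231 (-0.044 ± 0.12). PLSCR1, a phospholipid scramblase, read 6.76, 6.70 and 6.04 in MDA-MB-231 Control and 6.25, 6.21 and 5.87 with JQ1, and 9.18, 9.12 and 9.02 in HCC70 Control and 8.67, 8.61 and 8.32 with JQ1. The groups overlapped in MDA-MB-231 and not in HCC70. PLSCR1 changed by -0.58 ± 0.18 SE in HCC70 (limma adjusted p = 0.033), a call lost in 7 alternatives (up to 0.12 without HCC70 JQ1 3). In MDA-MB-231 PLSCR1 passed only with the replicate block (adjusted p = 0.021, or 0.018 with the block within each line), without MDA-MB-231 Control 3 (0.0056) or without the 3 arrays numbered 3 (0.0038). EPSTI1 changed by -0.32 ± 0.089 in HCC70 (limma adjusted p = 0.022), ended near background there and lost its call in 8 alternatives (up to 0.10 without HCC70 Control 2). IFI35 was not called in either line (0.093 ± 0.13 and -0.14 ± 0.13).

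Promoters of some members are shown because the ISRE, through which ISGF3 acts, was searched for in them. The RefSeq promoter table (GRCh38.p14, 250 bases before to 50 after each start, 300 in all) held 29 of the 36 members, and not OASL, IRF7, USP18, IFITM2, IFIT2, MX2 or TRIM22. The core of the ISRE, searched as GAAA, any 2 bases and GAAA again, or on the other strand as TTTC, any 2 bases and TTTC, occurred in the promoters of 20 of these 29 members (69.0%). It occurred in 3.89% of the 10749 tested genes in the table and in 4.38% of all 27305 genes there, and matches may overlap one another. On the gene's own strand alone it occurred in 14 members (48.3%) and 2.00% of tested genes. The 6 promoters below were chosen after the values were seen. IFI44L, IFITM1, IFIT1 and RTP4 had far larger measured falls in HCC70 than in MDA-MB-231, and HERC5 and ISG15 were not called in HCC70. In MDA-MB-231, IFI44L was near background in both groups and RTP4 only just above it in Control, which limits any fall there. SAMD9L, whose effects differed by -1.87, held no exact match and is not shown. Capitals mark every match, each sequence runs 5′ to 3′ on the plus strand, which is the gene's strand, and all coordinates are GRCh38.p14.
IFI44L, chr1:78620198-78620497: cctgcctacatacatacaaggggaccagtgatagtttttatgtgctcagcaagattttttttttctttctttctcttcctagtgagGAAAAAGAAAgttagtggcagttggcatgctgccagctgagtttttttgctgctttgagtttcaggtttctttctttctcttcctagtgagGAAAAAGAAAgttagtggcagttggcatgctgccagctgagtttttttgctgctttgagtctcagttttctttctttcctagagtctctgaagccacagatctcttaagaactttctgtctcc
IFITM1, chr11:313790-314089: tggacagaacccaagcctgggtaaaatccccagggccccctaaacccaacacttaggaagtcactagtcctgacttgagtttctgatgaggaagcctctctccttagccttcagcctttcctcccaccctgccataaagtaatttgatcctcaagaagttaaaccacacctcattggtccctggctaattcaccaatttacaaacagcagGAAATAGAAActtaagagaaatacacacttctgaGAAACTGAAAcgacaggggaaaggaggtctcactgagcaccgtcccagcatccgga
IFIT1, chr10:89392373-89392672: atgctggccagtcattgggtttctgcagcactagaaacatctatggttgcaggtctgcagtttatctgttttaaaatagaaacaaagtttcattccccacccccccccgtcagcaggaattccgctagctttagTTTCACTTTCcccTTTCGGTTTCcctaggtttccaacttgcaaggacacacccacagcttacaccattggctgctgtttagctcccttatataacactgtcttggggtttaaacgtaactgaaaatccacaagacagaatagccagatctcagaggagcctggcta
RTP4, chr3:187368135-187368434: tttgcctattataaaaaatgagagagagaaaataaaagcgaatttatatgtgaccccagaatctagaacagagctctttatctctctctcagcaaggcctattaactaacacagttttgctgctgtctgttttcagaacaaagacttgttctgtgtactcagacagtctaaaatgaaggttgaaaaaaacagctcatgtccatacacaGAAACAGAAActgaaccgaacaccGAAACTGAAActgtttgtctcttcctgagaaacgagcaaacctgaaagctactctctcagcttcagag
ISG15, chr1:1013247-1013546: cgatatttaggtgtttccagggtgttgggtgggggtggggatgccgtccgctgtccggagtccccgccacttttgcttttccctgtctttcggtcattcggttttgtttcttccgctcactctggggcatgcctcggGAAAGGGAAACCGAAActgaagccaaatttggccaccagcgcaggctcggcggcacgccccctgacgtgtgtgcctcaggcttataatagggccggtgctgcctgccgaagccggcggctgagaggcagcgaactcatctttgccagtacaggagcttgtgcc
HERC5, chr4:88456869-88457168: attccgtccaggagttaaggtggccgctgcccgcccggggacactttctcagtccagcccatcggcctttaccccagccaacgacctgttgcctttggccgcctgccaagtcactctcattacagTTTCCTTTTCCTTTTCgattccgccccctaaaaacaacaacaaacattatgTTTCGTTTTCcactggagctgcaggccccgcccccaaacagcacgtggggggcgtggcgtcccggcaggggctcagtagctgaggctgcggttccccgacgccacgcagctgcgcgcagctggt

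The matches began 164 and 73 bases upstream of the start in IFI44L, 40 and 6 in IFITM1, 116 and 103 in IFIT1, and 42 and 18 in RTP4. In ISG15 they began 113 and 107 bases upstream and shared letters, and HERC5 held 3, at 125, 119 and 74. The core was thus present both in promoters of genes that fell in HCC70 and in those of HERC5 and ISG15, which were not called there. Of the 20 members with a match, 12 were lower in MDA-MB-231 and 17 in HCC70, with median changes of -0.42 and -0.91. Of the 9 members in the table without one (HELZ2, HERC6, IFI35, IRF1, IRF9, SAMD9L, SP110, UBE2L6 and XAF1), 5 were lower and 1 higher in each line, with medians of -0.39 and -0.88. XAF1, HERC6 and SAMD9L, with falls of 1.87, 1.83 and 1.65 in HCC70, held no exact match in this window. The search counted no variants of the core. The promoters of XAF1 (tttcagtttt) and SAMD9L (aaaactgaaa) hold stretches that differ from it by 1 letter. A gene without a match may therefore still hold a variant of the element, and the 2 sets do not separate genes with and without an ISRE.

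**Figure D3:**
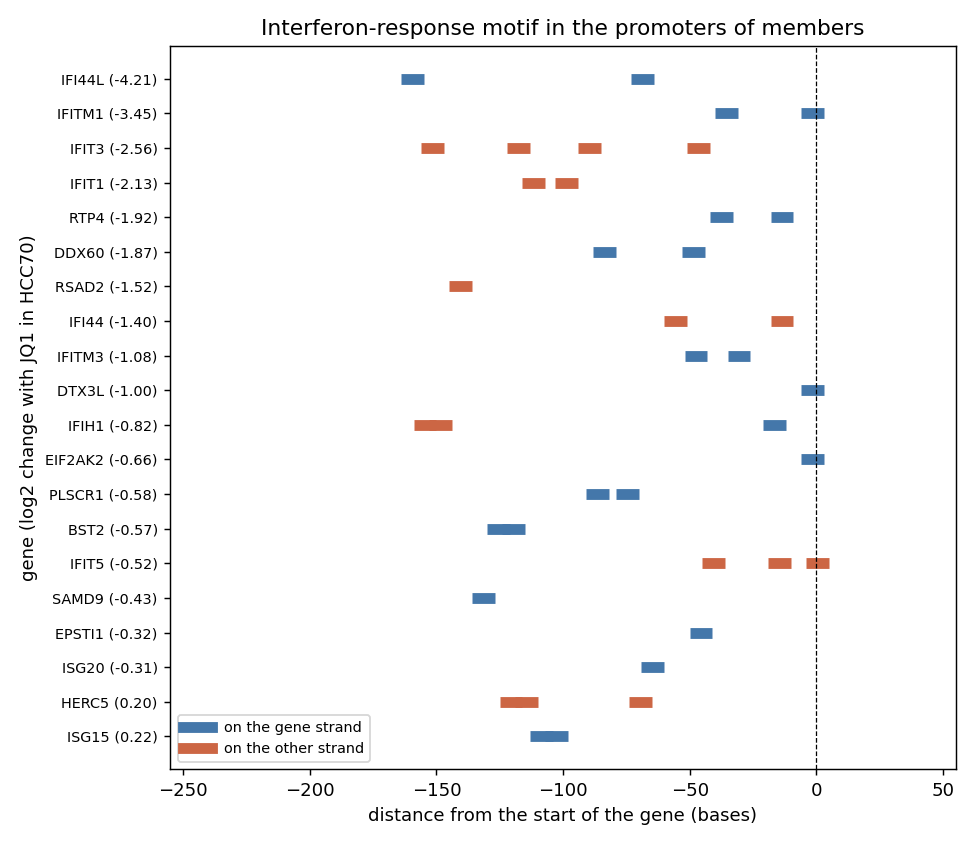
Position of each match to the ISRE core, on either strand, in bases from the start site, for the 20 members whose promoter holds one, ordered by their JQ1 change in HCC70 and coloured by strand. All matches begin upstream of the start, from 164 bases before it in IFI44L to 4 in IFIT5. IFI44 and PLSCR1 hold 1 match each, drawn once per annotated start, at 18 and 60 and at 79 and 91 bases.

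Without JQ1 the interferon-stimulated genes were higher in HCC70 than in MDA-MB-231 more often than lower. Between the Control groups 20 of 36 members were higher in HCC70 and 5 lower, where 23.8% and 23.2% of all genes were (limma, Benjamini-Hochberg). The median difference, HCC70 minus MDA-MB-231, was 0.48 for the members and 0.033 for all genes. With a difference of at least 1 required, 13 members were higher and 1 lower, beside 7.64% and 7.18% of all genes. The highest measured excess was in IFI44L, at least 4.14 ± 0.13 SE (17.6-fold). IFI44 was higher by 4.08 ± 0.26 (16.9-fold), and since the IFI44L value is a lower bound the gap between them is not known. PLSCR1 followed at 2.61 ± 0.18 (6.11-fold), RSAD2 at 2.40 ± 0.21 as a lower bound, IFITM1 at 2.27 ± 0.12 (4.82-fold), USP18 at 2.19 ± 0.15 and DTX3L at 2.00 ± 0.10. SAMD9 was higher in HCC70 by 1.65 ± 0.13, IRF9 by 1.42, IFIH1 by 1.33 and BST2 by 1.0. IFITM2 went the other way and was 4.60-fold lower in HCC70 (-2.20 ± 0.11). The other members lower in HCC70 were IFIT5 (-0.76), MX2 (-0.79, a lower bound in size), HELZ2 (-0.49) and IFI35 (-0.38), the last of which was not called in 5 alternatives (up to 0.12 without MDA-MB-231 Control 2). IFIT2 was called higher at 0.37, but not over all transcript clusters (0.058) or without HCC70 Control 2 (0.13), MDA-MB-231 Control 1 (0.11) or MDA-MB-231 Control 2 (0.086). IFIT1 was at the same level in both, with a difference of 0.0033.

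**Figure D4:**
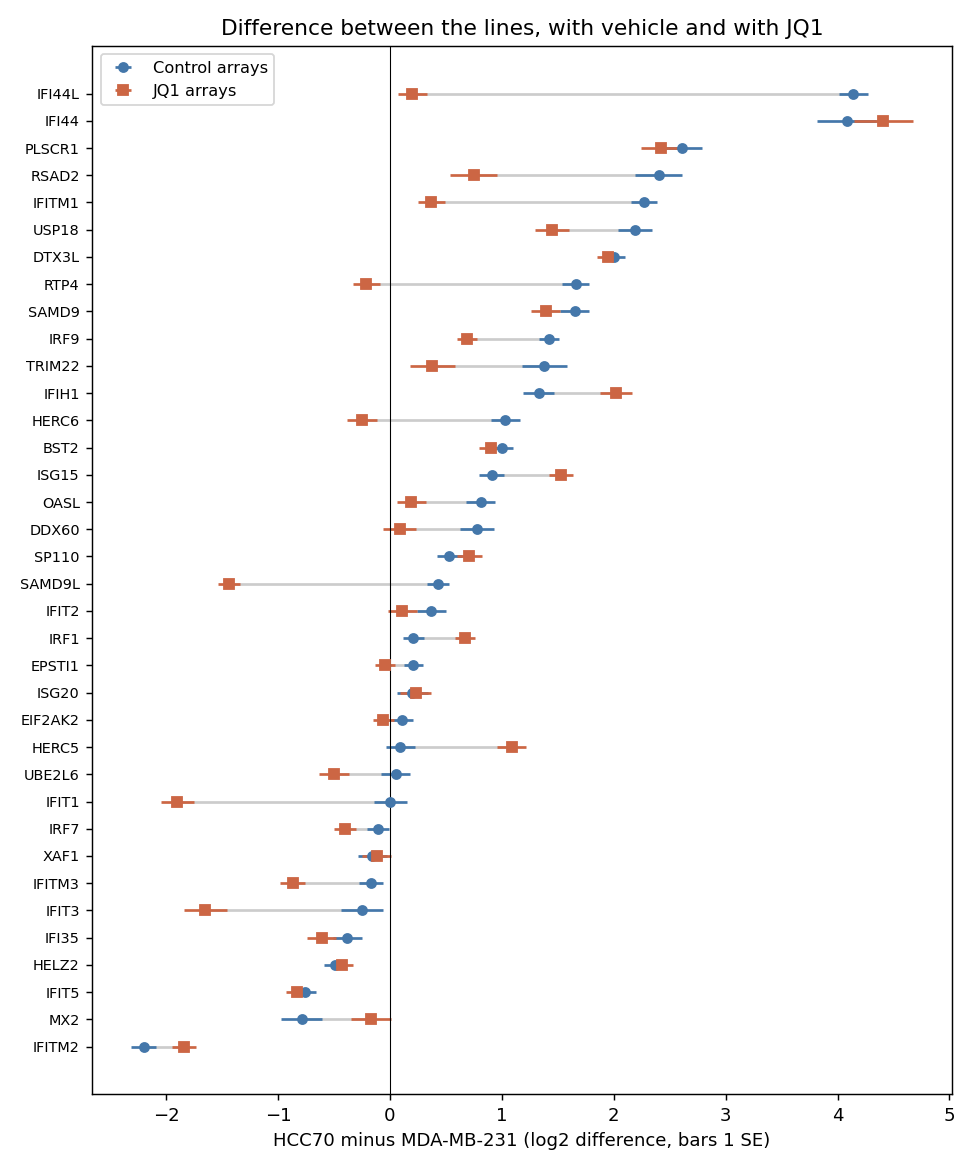
HCC70 minus MDA-MB-231 (log2) for each measured member between the Control arrays (blue) and between the JQ1 arrays (orange), with bars of 1 SE. IFI44L moves from 4.14, a lower bound, to 0.20, where it is near background in both lines. IFITM1 moves from 2.27 to 0.37, and IFI44 lies at 4.08 and, as a lower bound, at 4.41.

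With JQ1 the lines differed in fewer members in the HCC70 direction. Between the JQ1 groups 14 members were higher in HCC70 and 10 lower, where 24.5% and 21.8% of all genes were, and the member median was 0.15 beside 0.013. With a difference of at least 1 required, 8 were higher and 4 lower, beside 8.68% and 6.67% of all genes. Of the 20 members higher in HCC70 Control, 12 were also higher with JQ1, 7 were not called (DDX60, OASL, HERC6, IFIT2, TRIM22, IFI44L and RTP4) and 1, SAMD9L, was lower. IFI44L and TRIM22 were near background in both JQ1 groups, which limits any difference that could be measured there. IFI44 kept a difference of at least 4.41, and IFIH1 of at least 2.02, each against a near-background level in MDA-MB-231. DTX3L remained higher by 1.95, and ISG15 was higher by 1.53. IFITM1 was still called higher, at 0.37 ± 0.12 SE, though its arrays overlapped, and the call ended in 5 alternatives (adjusted p up to 0.11 without HCC70 JQ1 2). RSAD2 was called higher, but not without the 3 arrays numbered 3 (limma adjusted p = 0.15). IFIT1 differed by -1.90, a lower bound in size, and SAMD9L by -1.44. RTP4 differed by -0.21 and was not called, except without HCC70 JQ1 3 (limma adjusted p = 0.0082) and without the 3 arrays numbered 3 (0.0046).

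The JQ1 effect itself differed between the lines for 18 of the 36 members. The difference of the effects, HCC70 minus MDA-MB-231, was negative for 14 called members and positive for 4, where 5.95% and 9.02% of all genes were called so (limma, Benjamini-Hochberg). The member median was -0.25, beside 0.00033 over all genes. With a size of at least 1 required, 8 differences were negative and 0 positive, beside 1.57% and 2.51% of all genes. The most negative value was that of IFI44L, -3.93 ± 0.18 SE (limma adjusted p = 1.5e-07), a gene already near background in MDA-MB-231 Control, so no fall could be measured in that line. The same limit holds for RSAD2 (-1.65 ± 0.29) and TRIM22 (-1.0 ± 0.29). IFITM1, IFIT1, RTP4 and SAMD9L were measured above background in both Control groups. RTP4 was only just above it in MDA-MB-231 Control, with a mean of 5.19 beside a lower quartile of 4.78. A fall as large as its 1.92 in HCC70 would have ended near background there, which limits the RTP4 comparison. IFITM1 gave -1.90 ± 0.17 (limma adjusted p = 1.3e-05), IFIT1 -1.91 ± 0.21 (5.4e-05), RTP4 -1.88 ± 0.17 (1.4e-05) and SAMD9L -1.87 ± 0.14 (4.3e-06). IFIT3 gave -1.40 ± 0.27, HERC6 -1.28 ± 0.18, IRF9 -0.73 ± 0.13 and IFITM3 -0.70 ± 0.16. HERC5 differed in the other direction, at 0.99 ± 0.18 (limma adjusted p = 0.0026), and so did ISG15 at 0.62 ± 0.15 (adjusted p = 0.017), though ISG15 did not pass over all transcript clusters (0.05) or without the 3 arrays numbered 3 (0.068).

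The remaining calls of a difference each ended under some alternative. IFIH1 gave 0.69 ± 0.20 SE, with a MDA-MB-231 fall that is itself a lower bound, and was not called in 9 alternatives (limma adjusted p up to 0.085 over all transcript clusters). DDX60 gave -0.69 ± 0.21 and was lost in 11 (up to 0.11 over all transcript clusters). OASL at -0.62 ± 0.18 was lost in 9 (up to 0.092), IRF1 at 0.46 ± 0.13 in 8 (0.07 with the replicate block within each line), USP18 at -0.74 ± 0.21 in 7 (up to 0.079 without HCC70 Control 1) and TRIM22 in 11 (up to 0.09 without HCC70 Control 1). UBE2L6 was not called at -0.54 ± 0.18 (limma adjusted p = 0.06). It was called with the replicate block within each line (0.04), under quantile normalization (0.044) and without HCC70 JQ1 2 (0.044). For XAF1 the difference was 0.045, with a 95% interval from -0.35 to 0.44, and for DTX3L it was -0.055, with an interval from -0.37 to 0.26. These intervals hold no difference as large as those of IFITM1, RTP4 or SAMD9L.

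Several members are neighbours on a chromosome. In the RefSeq annotation (GRCh38.p14) no protein-coding gene lies between HERC5 and HERC6, SAMD9 and SAMD9L, IFI44 and IFI44L, or IFITM1 and IFITM2. In HCC70 the JQ1 changes were 0.20 for HERC5 and -1.83 for HERC6, both on chromosome 4. On chromosome 7 they were -0.43 for SAMD9 and -1.65 for SAMD9L. On chromosome 1 they were -1.40 for IFI44 and -4.21 for IFI44L, and on chromosome 11 -1.5 for IFITM2 and -3.45 for IFITM1. In MDA-MB-231 the changes were -0.79 for HERC5 and -0.55 for HERC6, -0.17 for SAMD9 and 0.22 for SAMD9L, and -1.86 for IFITM2 and -1.55 for IFITM1. No such pair can be given there for IFI44L, which was near background in both groups. On chromosome 10, the HCC70 changes were -2.13 for IFIT1 and -2.56 for IFIT3, both lower bounds in size, and -0.72 for IFIT2 and -0.52 for IFIT5. Differences between neighbouring genes were not tested.

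Genes of interferon induction and signalling were read from 4 lists of genes that are not members, of which 22 of 52 were measured. Whether changes in these genes came before or after those of the members was not tested. None of the 21 listed interferon genes was measured here, nor were IFNAR1 and IFNAR2. In MDA-MB-231 3 of the 22 rose and 6 fell, in HCC70 3 rose and 7 fell, and their median changes were -0.011 and -0.09. Of all genes, 10.8% rose and 17.0% fell in MDA-MB-231, and 9.18% rose and 12.5% fell in HCC70. Of the receptors and kinases, the tyrosine kinase JAK1 rose in MDA-MB-231 by 0.59 ± 0.079 SE (limma adjusted p = 0.0001). Its HCC70 change of 0.28 ± 0.079 was called (adjusted p = 0.024), but not in 6 alternatives. The interferon gamma receptor subunit IFNGR1 rose in MDA-MB-231 by 0.38 ± 0.09, and IFNGR2 fell in HCC70 by 0.61 ± 0.13. The MDA-MB-231 change of IFNGR2, -0.36 ± 0.13, did not pass (adjusted p = 0.054), but did in 8 alternatives, among them the replicate block (0.022) and the block within each line (0.045). TYK2, the other kinase of the type I receptor, was not called in either line (-0.19 and 0.16). IRF2, a factor that competes with IRF1 for its sites, fell by 0.54 ± 0.077 in each line.

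Between the Control groups 8 of the 22 pathway genes were higher in HCC70 and 5 lower, beside the 23.8% and 23.2% of all genes. The kinase JAK2, which serves the interferon gamma receptor, was higher by 2.39 ± 0.14 SE and IFNGR1 by 1.58 ± 0.09 (limma adjusted p = 1.5e-08 and 1.1e-08). The differences of IFNGR2 (-1.42 ± 0.13), the inhibitor SOCS3 (-1.11 ± 0.11) and the adaptor MAVS (-0.67 ± 0.081) went the other way. JAK1 was higher by 1.21 ± 0.079 and STAT3 by 0.46 ± 0.079.

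SOCS1, which blocks JAK kinases and damps interferon signalling, rose in HCC70. It read 5.84, 5.54 and 5.36 in HCC70 Control and 7.22, 6.93 and 6.83 with JQ1, and 5.36, 5.52 and 5.75 in MDA-MB-231 Control and 5.72, 5.71 and 5.58 with JQ1. The HCC70 groups were apart and the MDA-MB-231 groups overlapped. SOCS1 rose in HCC70 by 1.41 ± 0.14 SE (limma adjusted p = 1.6e-05), and the difference of the effects was 1.29 ± 0.20 (adjusted p = 0.00085). SOCS1 is the gene of its list with the largest change, while the whole list of 7 measured factors and inhibitors gave 1 rise and 1 fall in HCC70 and 1 fall in MDA-MB-231. Any part of SOCS1 in the falls of the members was not tested.

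Among 10 measured genes of nucleic acid sensing, 5 fell and 1 rose in each line. The shares of all genes that fell and rose were 17.0% and 10.8% in MDA-MB-231 and 12.5% and 9.18% in HCC70. The MDA-MB-231 count includes AIM2, near background in both groups there, and the HCC70 count includes the RNA sensor DHX58 (-0.34 ± 0.11), whose call was lost in 12 alternatives. STING1, the adaptor downstream of CGAS, fell by 0.42 ± 0.092 in MDA-MB-231 and by 0.75 ± 0.092 in HCC70. TLR3, the endosomal receptor for double-stranded RNA, fell in MDA-MB-231 by at least 2.27 ± 0.17 SE (limma adjusted p = 4.9e-07) and in HCC70 by 2.70 ± 0.17 (adjusted p = 3.3e-07). CGAS, the cytoplasmic DNA sensor, fell by 1.47 ± 0.14 in MDA-MB-231, and the effects differed by 0.97 ± 0.20 (limma adjusted p = 0.0048). Its HCC70 change of -0.49 was called (adjusted p = 0.022), but not in 5 alternatives (up to 0.091 without HCC70 Control 1). AIM2, a DNA sensor of the inflammasome, fell by at least 2.20 ± 0.19 in HCC70. TBK1, the kinase that activates IRF3 and IRF7, changed by -0.46 in MDA-MB-231 and 0.33 ± 0.097 in HCC70, and the effects differed by 0.79 ± 0.14 (limma adjusted p = 0.0018), though the HCC70 rise was not called in 5 alternatives. The nucleic acid sensor ZBP1 was called higher in MDA-MB-231 at 0.36 ± 0.12 (limma adjusted p = 0.046), a call that ended in 12 alternatives. RIGI, the sensor of short double-stranded RNA, was not called under JQ1 in either line (0.14 and 0.031), and was higher in HCC70 Control than in MDA-MB-231 Control by 1.56 ± 0.10.

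**Figure D5:**
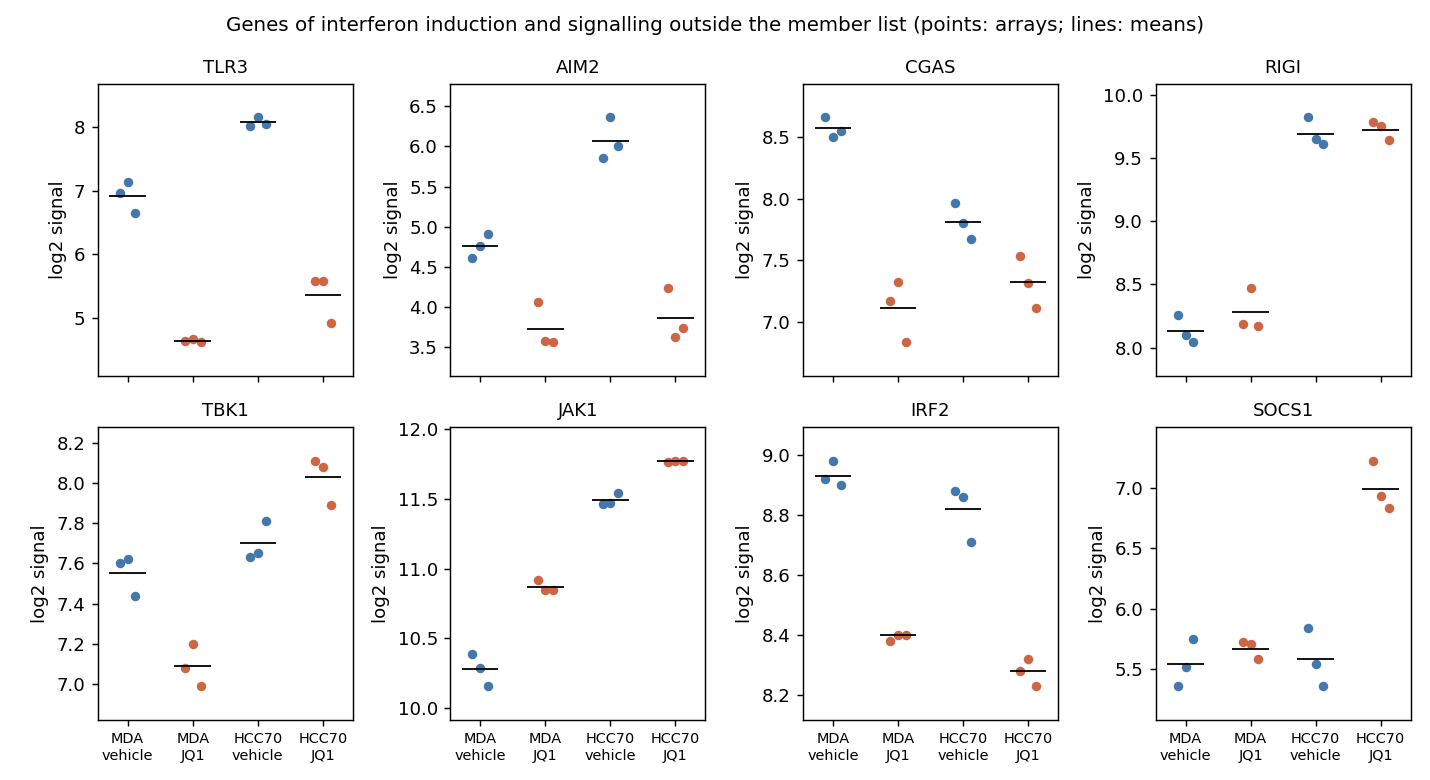
Log2 signal of each array for regulators of interferon signalling and nucleic acid sensing, with the 4 groups on the x axis, vehicle arrays in blue, JQ1 arrays in orange and black lines at the means. SOCS1 lies at 6.83 to 7.22 in HCC70 with JQ1, above all other arrays, and TLR3 lies lower with JQ1 in both lines.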

How the data were processed

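The deposited values are log2 signals of transcript clusters, for which the submitters' processing notes name RMA, oligo and limma without versions; for the genome build, the sources used here give none. Of the clusters, 16098 had 1 gene symbol in the platform annotation and 37519 had none. Where several clusters shared a symbol (779 genes) the brightest by mean over the 12 arrays was kept, with no filter on dim genes. In R 4.3.3, limma 3.58.1 (lmFit, eBayes) estimated the 4 group means from all arrays together, and contrasts were tested two-sided, with Benjamini-Hochberg adjustment over all 14884 genes and a threshold of 0.05. The fit and the calling were tested on simulated data. The members, gene lists and naming rule were chosen with earlier results of these data known. Any member could be named; values on every array were to be given for the 8 called members with the largest change in each line and between the Control groups, the 6 with the largest difference of effects, members that rose, and STAT2, IRF1, IRF7 and IRF9. Of each pathway list the rule took the 2 called genes with the smallest p in each direction, and always JAK1 and TYK2. Array values of HERC5, ISG15 and SOCS1, beyond this rule, were chosen after they were seen.

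Whether replicate numbers pair the arrays was judged from the deviations of each array from its group mean, correlated across genes. Same-numbered Control and JQ1 arrays correlated at 0.155, 0.121 and 0.362 in MDA-MB-231, and at -0.0588, 0.0147 and 0.0702 in HCC70. In MDA-MB-231, Control 2 and JQ1 1 also correlated at 0.121, and the other differently numbered arrays at -0.25 to 0.0381. The differently numbered arrays of HCC70 gave -0.142 to 0.135. Pairing was thus not settled in MDA-MB-231 and not seen in HCC70, and the main fit used no pairs in either line. As alternatives the replicate number entered as a block, shared or within each line (the latter added after seeing the data), each line was fitted alone, and the variance was moderated with trend and robust settings. Others were quantile normalization, centring, the mean of a gene's clusters, genes above the median level, all transcript clusters, a log2 change of at least 1, and each array left out. A last one left out MDA-MB-231 Control 3, MDA-MB-231 JQ1 3 and HCC70 JQ1 3 (the 3 arrays numbered 3).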

Additional observations from a re-analysis of the deposited data

Results flagged for a closer look

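For 18 members the JQ1 effect in HCC70 minus that in MDA-MB-231 passed the test of that difference (limma, Benjamini-Hochberg adjusted p under 0.05). The effect was more negative in HCC70 for IFI44L (-3.93), IFIT1 (-1.91), IFITM1 (-1.90), RTP4 (-1.88), SAMD9L (-1.87), RSAD2 (-1.65), IFIT3 (-1.40), HERC6 (-1.28), TRIM22 (-1.0), USP18 (-0.74), IRF9 (-0.73), IFITM3 (-0.70), DDX60 (-0.69) and OASL (-0.62). It was more negative in MDA-MB-231 for HERC5 (0.99), IFIH1 (0.69), ISG15 (0.62) and IRF1 (0.46). IFI44L, RSAD2 and TRIM22 were near background in MDA-MB-231 Control, and RTP4 was only just above it (mean 5.19). Of these 18 calls, 11 were kept in every alternative run except the one requiring a change of at least 1.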

How the results depend on the processing

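No member reversed its direction on a called value under any alternative run. The calls kept under every alternative except the requirement of a change of at least 1 were 16 of 23 in MDA-MB-231, 25 of 29 in HCC70, 23 of 25 between the Control groups, 22 of 24 between the JQ1 groups and 11 of 18 for the difference of the effects. With a change of at least 1 required, 7 members fell and 0 rose in MDA-MB-231, 15 fell and 0 rose in HCC70, 13 were higher and 1 lower in HCC70 Control, 8 higher and 4 lower in HCC70 JQ1, and the effects differed negatively for 8 and positively for 0. Among genes above the median level, which kept 24 members, 1 member rose in each line, 6 were lower in HCC70 JQ1 and 8 had a negative difference of effects. Over all transcript clusters 1 member had a positive difference, and without the 3 arrays numbered 3 it was 2. Leaving out 1 array gave 1 to 3 members that rose in MDA-MB-231, with HELZ2 lost without MDA-MB-231 Control 1 or JQ1 1. It gave 2 to 5 positive differences, with the 2 reached without HCC70 Control 1, HCC70 JQ1 1, HCC70 JQ1 2, MDA-MB-231 Control 2 or MDA-MB-231 JQ1 2. With the replicate number as a block 22 members fell in MDA-MB-231 and 27 in HCC70, and with the block within each line 24 and 27. The block also called TRIM22 higher in HCC70 JQ1 (limma adjusted p = 0.04), and changed no other call of a member than those given beside their values. Taking the lower quartile of all transcript clusters as background left 1, 1, 0 and 1 members near background in MDA-MB-231 Control, MDA-MB-231 JQ1, HCC70 Control and HCC70 JQ1. Signal near background limits the size of the falls in IFI44L, IFIT1, IFIT3, TRIM22, EPSTI1, IFIH1, IFI44 and MX2. The cause of each of these shifts was not tested.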
